A study of Rattus norvegicus with 9 samples.

Results

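The amino acid catabolism and one-carbon genes of the liver are described here as a listed group of 44 genes. Each gene was read from 1 probe set of the array, that with the highest mean log2 signal over all 9 arrays among the probe sets annotated with its symbol alone. All 44 listed genes had such a probe set, out of 14217 genes that had one in the whole data set, and all 44 passed the filter on low signals. Liver RNA came from 9 male Goto-Kakizaki (GK) rats, an inbred strain that becomes diabetic spontaneously and serves as a model of type 2 diabetes. The rats arrived at 5 weeks of age and were kept for 7 weeks until diabetes had emerged. They were then divided at random into control and stressed rats. Control 1–3 were fed normally for 8 weeks without stress and carry the symptom label undepression. CUMS 1–3 carry the label Major Depression and CUMS 4–6 the label Mild Depression. The study does not describe how these labels were given to the stressed rats. All 6 went through 8 weeks of chronic unpredictable mild stress (CUMS), singly housed, with changing daily stressors such as restraint, forced swims in hot or cold water, shaking, damp bedding, noise and altered light. All 9 rats, controls included, were diabetic and received repaglinide by gavage before the livers were taken, and no non-diabetic or undosed rat was among the arrays. Each rat had 1 array, so n is 3 rats for each group.

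The liver is the main organ that breaks down amino acids. Aminotransferases move the amino nitrogen to glutamate and aspartate on its way to urea, and branch by branch the carbon skeletons are turned into glucose precursors, ketone bodies or fuel. Methionine degradation supplies S-adenosylmethionine, the methyl donor of the cell, and it is tied through homocysteine, serine and glycine to the folate carriers of one-carbon units. In rat liver many of these genes are known to respond to glucagon, glucocorticoids and feeding, and several are expressed more strongly near the portal vein than near the central vein.

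The deposited values are signals, linear intensities that the authors scaled to the same trimmed mean on every array, and differences below are on the log2 scale. Median signals per array lay between 107 and 133, and their number, 3 arrays a group, limits the precision. Control 3 was unlike the other livers. Its median correlation with the other arrays was 0.951, against 0.965 to 0.972 for the others. The mean log2 level of 15 stellate cell and fibroblast markers was 1.31 above the control mean in control 3 and -0.75 and -0.56 in control 1 and 2, and that of 5 bile duct markers was 1.30 in control 3 against -1.16 to -0.42 in the other 8 rats. Col1a1, a collagen chain of fibroblasts, had a signal of 2493 in control 3 and 97.4 to 160 elsewhere. The stellate cell markers were also lower in all 6 stressed rats than in control 1 and 2, at -1.56 to -1.08 in CUMS 1–3 and -0.99 to -0.82 in CUMS 4–6. Of 13 such markers tested, 0 had a higher mean than control in either CUMS group. At an unadjusted p under 0.05, 7 in CUMS 1–3 and 4 in CUMS 4–6 were lower, beside 4.17% and 3.55% of all probe sets. Without control 3 the markers lower at that p were 7 and 3, beside 2.99% and 2.53% of all probe sets, and 0 and 3 markers had a higher mean. Of 9 Kupffer cell and macrophage markers, 8 had a lower mean in CUMS 1–3 (4 at that p) and 7 in CUMS 4–6 (3 at that p). Without control 3 both counts of lower means were 8, with 2 and 1 at that p. Another of these markers, Cd14, was higher at that p in both groups, with and without control 3. Of all probe sets 2.59% and 2.73% were higher at that p, and 2.53% and 2.63% without control 3. Of 8 endothelial markers, 5 had a higher mean in each CUMS group (0 at that p), and 7 without control 3 (1 at that p). The part of these cells in the results on the 44 genes was not tested. The 9 measured hepatocyte markers were high in all rats (Alb 17130 to 29580), with a mean level from -0.19 in control 3 to 0.17 in CUMS 6. Of 7 measured kidney, pancreas and gut markers, 2 passed the signal filter. In whole liver, fewer cells of a type and less RNA per cell cannot be told apart. Values are therefore given with and without control 3.

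**Figure D1:**
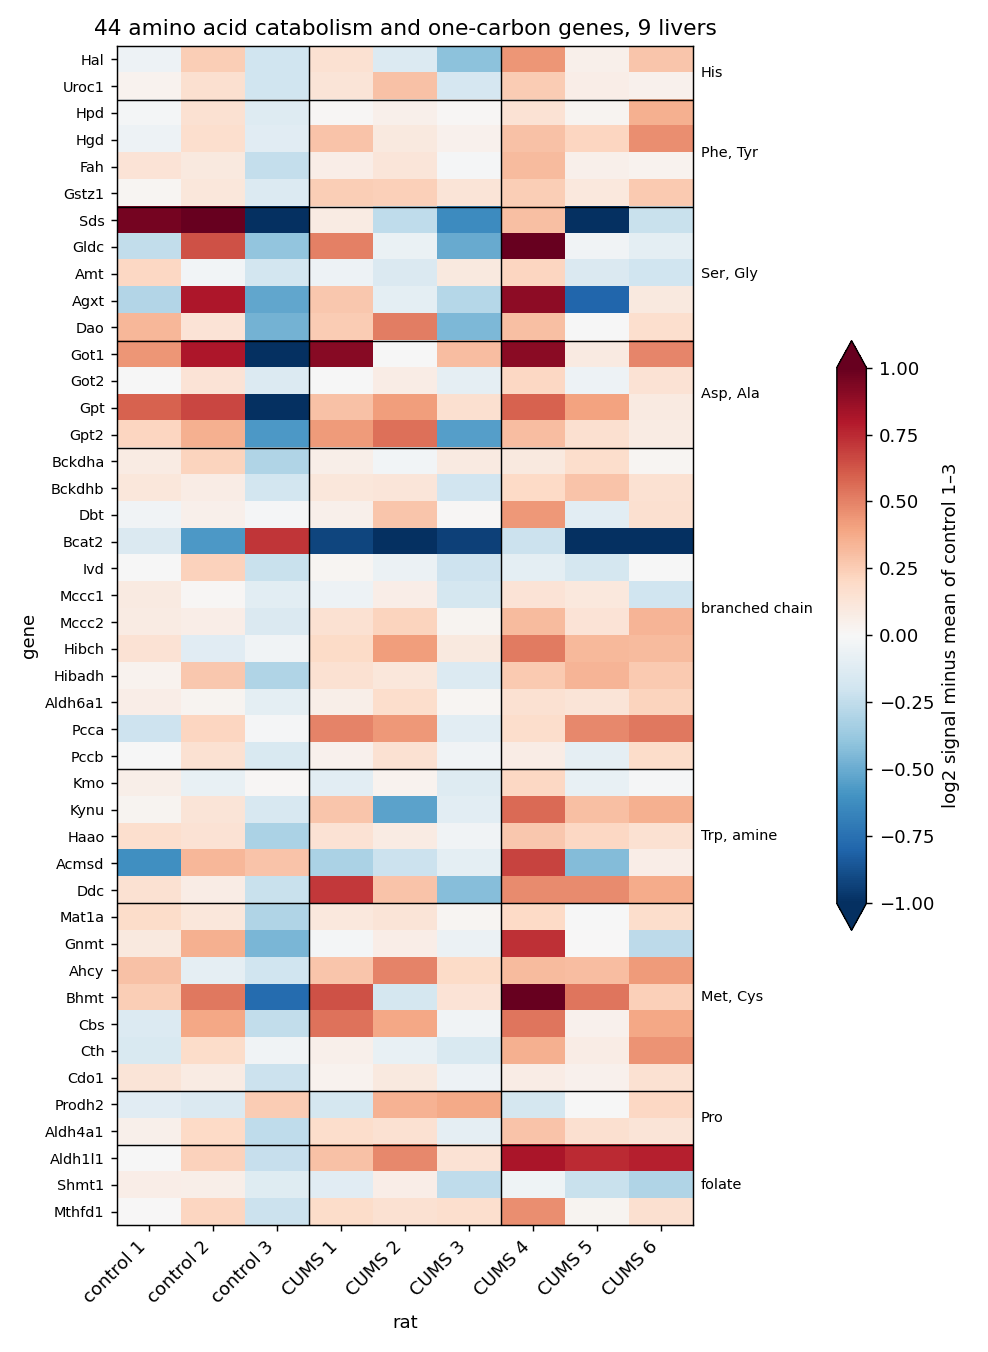
Each cell is the log2 signal of 1 gene (rows, grouped by pathway branch) in 1 rat (columns) minus the mean of control 1–3; red is higher, blue is lower, and the colour scale ends at -1 and 1. The control 3 column is blue in most rows, the CUMS 4 column is red in most rows, and within the Aldh1l1 row the colour is darkest in CUMS 4–6.

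None of the 44 genes passed the limma test (Benjamini-Hochberg adjusted p under 0.05) in any comparison, and neither did any other of the 18625 probe sets tested, so the background of calls was 0% in each of the 4 comparisons. The test that the study names for its arrays, adjusted in the same way, called 1 probe set in CUMS 1–3 against control, which was not of a listed gene, and 0 in the others. The values below are thus differences of means that did not pass a test adjusted over all probe sets. In CUMS 1–3 against control, 29 of the 44 genes had a higher mean and 15 a lower one, with a median log2 difference of 0.06. Over all probe sets 48.9% were higher and the median was -0.01. Before adjustment, 2 of the 44 genes were higher at p under 0.05 and 1 was lower, beside 2.59% and 4.17% of all probe sets. All 3 rats lay above all controls for 1 gene (Gstz1) and below them for 1 (Bcat2), where 5.3% and 6.32% of all probe sets did so, which is a share near the background. Without control 3, 13 of 44 genes had a higher mean and the median was -0.07, beside 49.7% and -0.002 over all probe sets. In that setting 0 listed genes were higher and 2 lower at an unadjusted p under 0.05, beside 2.53% and 2.99% of all probe sets. With median centring of the arrays and all controls, 34 genes had a higher mean.

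In CUMS 4–6 against control, 39 of the 44 genes had a higher mean, with a median of 0.18, while 46.3% of all probe sets were higher and their median was -0.02. Before adjustment 8 genes were higher and 1 was lower at p under 0.05, beside 2.73% and 3.55% of all probe sets. For 9 genes (Hgd, Bckdhb, Mccc2, Hibch, Aldh6a1, Kynu, Ddc, Ahcy and Aldh1l1) all of CUMS 4–6 lay above all controls, and for none below, beside 5.34% and 6.29% of all probe sets. Without control 3, 28 genes had a higher mean, with a median of 0.09, and 3 genes (Aldh1l1, Hibch and Hgd) were higher and 1 (Sds) lower at an unadjusted p under 0.05, beside 2.63% and 2.53% of all probe sets, of which 47.8% had a higher mean. With every array scaled on its own hepatocyte markers, an alternative added after the values were seen, 29 genes had a higher mean. Of these 9 markers 8 had a higher mean in CUMS 4–6 than in control and 3 in CUMS 1–3, and their mean level ran from -0.19 to 0.10 in control, from -0.13 to 0.01 in CUMS 1–3 and from 0.06 to 0.17 in CUMS 4–6. Their part in the result was not tested.

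CUMS 1–3 and CUMS 4–6 share the same controls, so the 2 comparisons above are not independent, and the labels were also set against each other. In CUMS 1–3 against CUMS 4–6, 38 of the 44 genes had a lower mean and 6 a higher one, with a median of -0.09 beside 0.01 over all probe sets, of which 51.3% were higher. Before adjustment 4 genes (Hal, Kynu, Cth and Aldh1l1) were lower and 0 were higher at p under 0.05, beside 1.32% and 1.52% of all probe sets. All of CUMS 1–3 lay below all of CUMS 4–6 for 6 genes (Bckdhb, Hibadh, Kynu, Haao, Cth and Aldh1l1) and above for 0, beside 4.37% and 4.75% of all probe sets. Among the scalings, only that on hepatocyte markers, added after the values were seen, turned this direction, and quantile normalization kept it. When the arrays were scaled on hepatocyte markers, 33 of the 44 genes had a higher mean in CUMS 1–3 and the median was 0.08. Of the 9 markers themselves, 8 had a lower mean in CUMS 1–3 than in CUMS 4–6 (median -0.13). Without CUMS 4, 21 of 44 were higher, with a median of -0.01, and without CUMS 3, 14 were higher. The mean of all 6 CUMS rats was above that of control for 36 genes, with a median of 0.12, and 5 genes were higher and 1 lower before adjustment (3.07% and 4.86% of all probe sets). In no gene did all 6 lie above or below the controls, as 1.52% and 2.15% of all probe sets did. Without control 3 only 22 genes had a higher mean, with a median of -0.001, beside 48.5% of all probe sets. In that setting 2 listed genes were higher and 2 lower at an unadjusted p under 0.05, beside 2.8% and 2.9% of all probe sets.

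The spread of the group over rats was read from the mean level of the 44 genes. It was 0.07, 0.21 and -0.27 in control 1, 2 and 3, then 0.15, 0.09 and -0.10 in CUMS 1, 2 and 3, and 0.35, 0.03 and 0.13 in CUMS 4, 5 and 6. The 3 groups overlapped, and control 3 and CUMS 4 were the extremes. Control 3 had the lowest signal of all rats for 27 of the 44 genes, against 14.4% of all probe sets, and CUMS 4 had the highest for 19, against 9.88%. A list of 9 periportal hepatocyte markers, some of them enzymes of nitrogen metabolism, was also lowest in control 3 (-0.29) and highest in CUMS 4 (0.26). This list holds none of the 44 genes. It shares genes with the hepatocyte markers and with the other genes of the same pathways described below, so their levels are not independent. The 3′ to 5′ signal ratio of actin, which is read as a sign of RNA integrity, was 4.96 in CUMS 4, 5.23 in CUMS 2 and 2.51 to 3.73 in the others. The part of zonation or RNA integrity in these levels was not tested. Within groups the 44 genes had a median SD of 0.18 on the log2 scale, against 0.25 over all probe sets. Most of the 44 genes had high signals, and no background of probe sets with equal signal was taken. The steadiest was Aldh6a1 (SD 0.08), and the most variable were Sds (1.18), Got1 (0.73), Agxt (0.66) and Gpt (0.65). Without control 3 these last values were 0.49 for Sds, 0.41 for Got1, 0.66 for Agxt and 0.18 for Gpt, so the SD of Sds, Got1 and Gpt was smaller without that liver and that of Agxt was not.

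**Figure D2:**
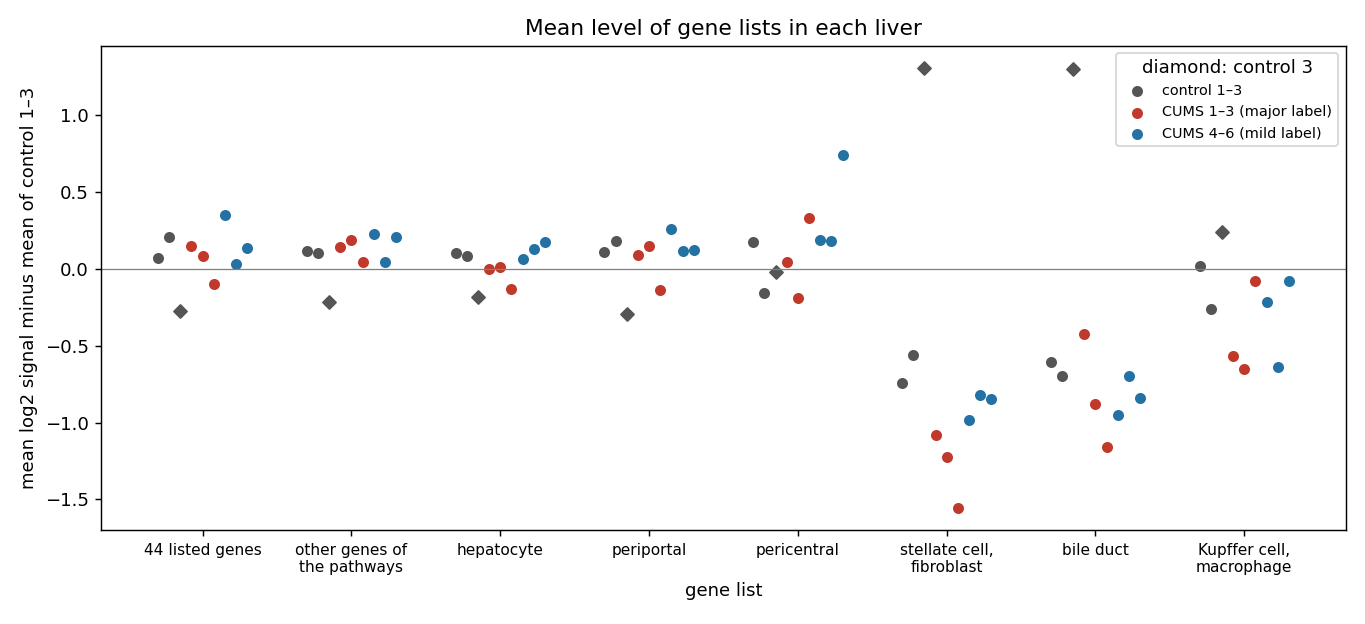
Each point is 1 rat (diamond: control 3), and the y axis is the mean log2 signal of a gene list minus the mean of control 1–3. Control 3 is lowest for the 44 listed genes, for the other genes of the pathways and for the hepatocyte and periportal lists, and far above all other rats for the stellate cell and bile duct lists. The periportal and pericentral lists share genes with the other genes of the pathways, and the periportal list also with the hepatocyte list.

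The widest separation of the labels among the folate enzymes, and the smallest p of all 44 genes, was seen for Aldh1l1. Its product, 10-formyltetrahydrofolate dehydrogenase, releases the formyl group as carbon dioxide and returns tetrahydrofolate. The gene lies at chr4:124617182-124663674 in the RefSeq annotation of GRCr8, a build that the array files do not use. The signals were 5142, 6051 and 4401 in control 1–3 (5198 ± 826, mean ± SD, n = 3), 6323, 7188 and 5703 in CUMS 1–3 (6404 ± 746) and 9086, 8650 and 8842 in CUMS 4–6 (8859 ± 218). All of CUMS 4–6 lay above every other rat, while CUMS 3 lay between the controls. The log2 difference of CUMS 4–6 from control was 0.78 (SE 0.13), a 1.72-fold higher level, with an adjusted p of 0.297 from limma, and 0.67 without control 3. In CUMS 1–3 it was 0.31 (SE 0.13, adjusted p = 0.733) and 0.19 without control 3. Between CUMS 1–3 and CUMS 4–6 the difference was -0.47 (SE 0.13, adjusted p = 0.9996), and over all 6 CUMS rats against control it was 0.54 (SE 0.11, adjusted p = 0.400). The other folate genes differed less. Shmt1, the cytosolic serine hydroxymethyltransferase, which moves a carbon from serine to tetrahydrofolate, had 3929 ± 282 in control, 3672 ± 413 in CUMS 1–3 and 3457 ± 321 in CUMS 4–6. Mthfd1, a trifunctional enzyme that interconverts the folate-bound carbon units, had 5783 ± 854, 6455 ± 69.9 and 6725 ± 1062, with the groups overlapping.

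The sequence upstream of Aldh1l1 is shown with those of Kynu and Hibch, whose signals also lay above all controls in CUMS 4–6. Each run covers 250 bases before and 50 after a RefSeq start site (GRCr8), written 5′ to 3′ on the strand of the gene: chr4:124616970-124617269, plus strand, for Aldh1l1, chr3:48188036-48188335, plus strand, for Kynu, and chr9:56161747-56162046, minus strand, for Hibch. Capitals mark ATTGG, the CCAAT box read on the other strand.
Aldh1l1: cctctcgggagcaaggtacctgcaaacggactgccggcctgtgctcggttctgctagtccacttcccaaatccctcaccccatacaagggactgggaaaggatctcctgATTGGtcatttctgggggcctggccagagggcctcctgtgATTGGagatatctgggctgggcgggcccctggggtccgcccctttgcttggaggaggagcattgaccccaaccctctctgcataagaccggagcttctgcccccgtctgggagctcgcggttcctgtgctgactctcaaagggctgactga
Kynu: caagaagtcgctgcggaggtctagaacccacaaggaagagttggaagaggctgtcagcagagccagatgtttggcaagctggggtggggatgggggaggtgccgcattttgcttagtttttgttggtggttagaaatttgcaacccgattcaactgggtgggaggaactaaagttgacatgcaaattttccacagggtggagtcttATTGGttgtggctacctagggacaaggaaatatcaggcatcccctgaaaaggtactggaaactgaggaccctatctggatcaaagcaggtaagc
Hibch: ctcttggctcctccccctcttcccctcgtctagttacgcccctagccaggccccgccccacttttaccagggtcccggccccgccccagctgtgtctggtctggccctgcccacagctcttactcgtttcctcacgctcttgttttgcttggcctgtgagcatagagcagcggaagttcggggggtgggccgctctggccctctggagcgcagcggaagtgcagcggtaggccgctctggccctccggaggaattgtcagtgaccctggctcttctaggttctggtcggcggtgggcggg
The Aldh1l1 window held ATTGG at -141 and -101 and the Kynu window at -44 from the start site, and the Hibch window held none of the motifs searched. Of the 44 genes, 36 had a window of this kind. The CCAAT box (CCAAT or ATTGG) was in 21 of these 36, and in 37.5% of all 33469 windows. The core hexamer of the glucocorticoid receptor element (AGAACA or TGTTCT) was in 4 of 36 (Agxt, Bckdhb, Haao and Mat1a) and in 20.7% of all windows, the cAMP response element TGACGTCA in 0 of 36 and 1.83%, and the TATA box (TATAAA or TTTATA) in 4 of 36 (Aldh4a1, Amt, Bhmt and Ddc) and 14.2%. A match describes the letters in the window and says nothing of binding.

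In the methionine and cysteine branch, all 7 genes had a higher mean in CUMS 4–6 than in control (median 0.29) and 5 of 7 in CUMS 1–3 (median 0.09). Without control 3 these counts were 4 and 2. Ahcy, the hydrolase that splits S-adenosylhomocysteine into homocysteine and adenosine, had signals of 16720, 12800 and 11890 in control 1–3, 16540, 19290 and 15630 in CUMS 1–3 and 16980, 16900 and 18310 in CUMS 4–6. Control 1 lay inside the range of CUMS 1–3 and just below CUMS 5, and the other controls were below all 6 stressed rats. The log2 difference from control was 0.32 (SE 0.13) in CUMS 1–3 and 0.35 (SE 0.13) in CUMS 4–6, with adjusted p of 0.733 and 0.755. Without control 3 these were 0.22 and 0.25. Over all 6 CUMS rats it was 0.34 (SE 0.11, adjusted p = 0.546).

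Cth, cystathionine gamma-lyase, frees cysteine at the end of transsulfuration. It was among the 4 genes lower in CUMS 1–3 than in CUMS 4–6 at an unadjusted p under 0.05 from limma (1.32% of all probe sets). Its signals were 13950, 17610 and 15170 in control, 16070, 14750 and 13960 in CUMS 1–3 and 19790, 16310 and 21220 in CUMS 4–6. CUMS 1–3 lay within the range of the controls and below all of CUMS 4–6, of which CUMS 5 also lay within that range. The difference of CUMS 4–6 from control was 0.29 (SE 0.12, adjusted p = 0.777), and that of CUMS 1–3 from CUMS 4–6 was -0.35 (SE 0.12, adjusted p = 0.9996). Bhmt, which remethylates homocysteine with betaine, had the widest spread of the branch, from 6196 in control 3 to 23750 in CUMS 4. Its difference in CUMS 4–6 was 0.65 (SE 0.33, adjusted p = 0.785) with all controls and 0.27 without control 3. In Gnmt, the glycine N-methyltransferase that uses up surplus S-adenosylmethionine, the same rats were the extremes, with 7529 in control 3 and 17150 in CUMS 4, and the means were 10620 ± 2885, 10300 ± 454 and 12050 ± 4503. Mat1a, which makes S-adenosylmethionine, Cbs, the first transsulfuration enzyme, and Cdo1, the cysteine dioxygenase, had log2 differences from control between 0.03 and 0.32 in both CUMS groups, with overlapping rats in each case.

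**Figure D3:**
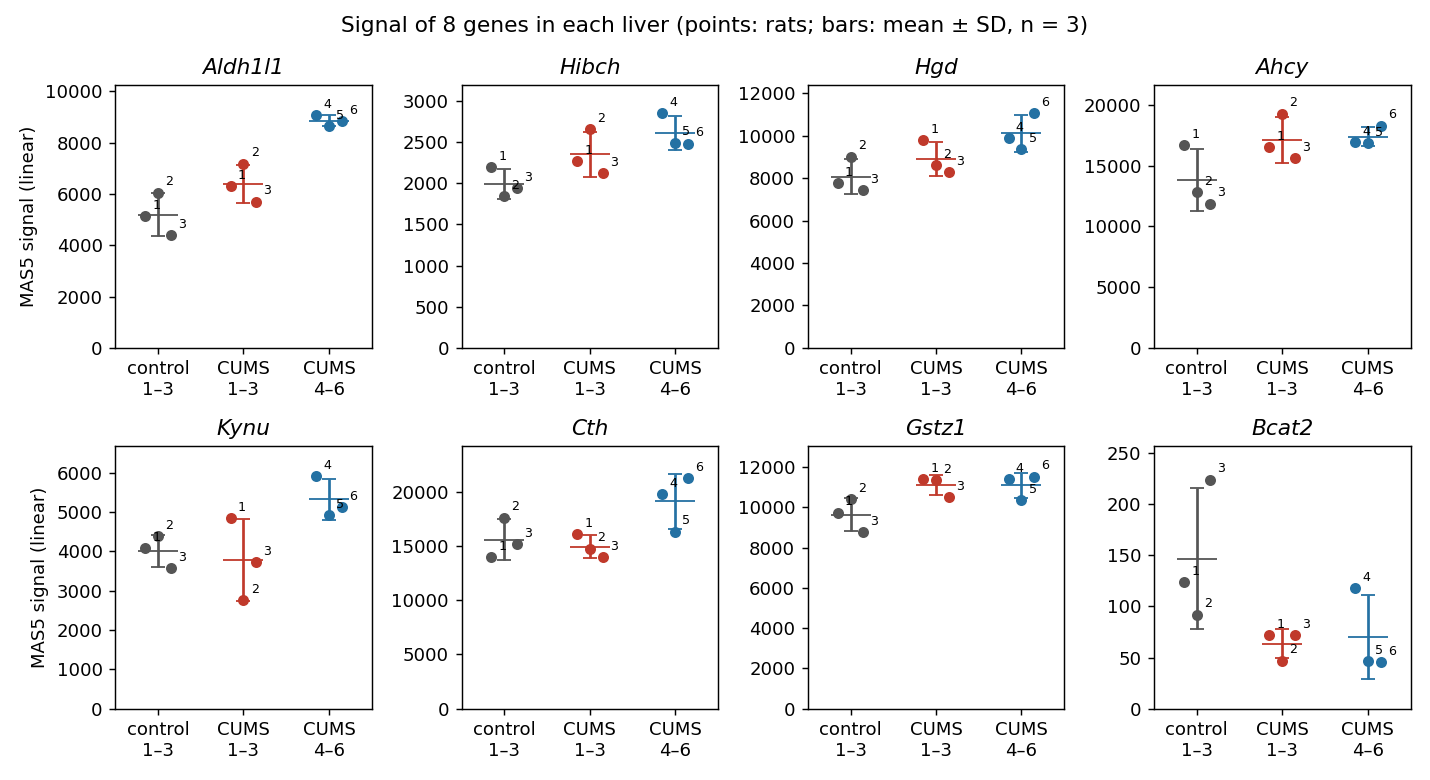
MAS5 signal on a linear axis from 0 for 8 of the named genes in each rat (points, numbered by rat), with the mean and SD of each group of 3. Aldh1l1 in CUMS 4–6 (8650 to 9086) lies above all other rats, Kynu and Cth are higher in CUMS 4–6 than in CUMS 1–3, and Bcat2 is highest in control 3 (224).

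Of the 12 genes of branched-chain amino acid breakdown, 9 had a higher mean than control in CUMS 1–3 (median 0.05) and 10 in CUMS 4–6 (median 0.17). Without control 3 these were 5 (median -0.05) and 7 (median 0.12). Bcat2, the mitochondrial aminotransferase of the first step, which is known to be little expressed in hepatocytes, was the one gene of the branch with a difference over 1 on the log2 scale. Its signals were 124, 92.0 and 224 in control, 72.3, 46.9 and 71.7 in CUMS 1–3 and 118, 46.6 and 45.7 in CUMS 4–6. All of CUMS 1–3 lay below all controls, and CUMS 4 lay between controls 1 and 2. The log2 difference from control was -1.13 (SE 0.45) in CUMS 1–3 and -1.12 (SE 0.45) in CUMS 4–6, with adjusted p of 0.733 and 0.770 from limma. Without control 3, which had the highest Bcat2 signal together with the highest stellate cell and bile duct marker levels, these were -0.78 and -0.76. The part of these cells in the Bcat2 signal was not tested. Bcat2 had the lowest signals of the 44 genes, near the limit of the signal filter (mean log2 6.07). With log2 of the signal plus 50 and all controls, the differences were -0.74 in CUMS 1–3 and -0.71 in CUMS 4–6.

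The valine enzyme Hibch, which removes coenzyme A from 3-hydroxyisobutyryl-CoA, differed the other way. Signals were 2202, 1844 and 1939 in control, 2267, 2663 and 2123 in CUMS 1–3 and 2854, 2495 and 2483 in CUMS 4–6. CUMS 3 lay within the controls and the other 5 stressed rats above them. The log2 difference was 0.23 (SE 0.12, adjusted p = 0.760) in CUMS 1–3 and 0.39 (SE 0.12, adjusted p = 0.744) in CUMS 4–6, and it hardly depended on control 3 (0.22 and 0.37 without it). Hibadh, the dehydrogenase of the next step, had 14030, 16500 and 11160 in control, 15260, 14860 and 12460 in CUMS 1–3 and 16430, 17340 and 16460 in CUMS 4–6, so that all of CUMS 4–6 lay above CUMS 1–3 while control 2 lay within their range. The difference between the labels was -0.24 (SE 0.14, adjusted p = 0.9996). Aldh6a1, which ends the valine branch with propionyl-CoA, was above all controls in CUMS 4–6 by a small amount, 17420 ± 629 against 15520 ± 904 (0.17, SE 0.09, adjusted p = 0.785).

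Propionyl-CoA carboxylase is built from Pcca and Pccb. Pcca had signals of 1309, 1751 and 1499 in control, 2125, 2036 and 1403 in CUMS 1–3 and 1709, 2100 and 2176 in CUMS 4–6, with a difference of 0.40 in CUMS 4–6 (SE 0.18, adjusted p = 0.779) and overlap through control 2. Its partner Pccb differed by 0.05 in CUMS 1–3 and 0.06 in CUMS 4–6. Methylcrotonyl-CoA carboxylase of the leucine branch is likewise built from Mccc1 and Mccc2. Mccc2 had 3572, 3526 and 3051 in control, 3745, 3930 and 3432 in CUMS 1–3 and 4196, 3709 and 4268 in CUMS 4–6, all of the last above the controls (0.26, SE 0.11, adjusted p = 0.770, and 0.19 without control 3). Mccc1 differed by 0.01 in that comparison. The branched-chain ketoacid dehydrogenase genes differed less. Bckdhb had 1883 ± 206 in control, 1901 ± 226 in CUMS 1–3 and 2172 ± 103 in CUMS 4–6, a difference of 0.21 in the last (SE 0.13, adjusted p = 0.821) with no overlap. Bckdha, its partner in the decarboxylase, and Dbt, the transacylase core, differed by 0.10 and 0.17 with overlap. Ivd, isovaleryl-CoA dehydrogenase, had a lower mean than control in both groups (-0.08 and -0.09).

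In the phenylalanine and tyrosine branch, all 4 genes had higher means than control in both CUMS groups, with medians of 0.10 and 0.19, and without control 3 these counts were 2 and 4. Hgd, homogentisate dioxygenase, which opens the aromatic ring, had signals of 7769, 9014 and 7424 in control, 9782, 8626 and 8277 in CUMS 1–3 and 9876, 9357 and 11070 in CUMS 4–6. All of CUMS 4–6 lay above the controls, and of CUMS 1–3 only CUMS 1 lay above control 2. The difference was 0.33 in CUMS 4–6 (SE 0.11, adjusted p = 0.744), 0.27 without control 3, and 0.14 in CUMS 1–3. Gstz1, maleylacetoacetate isomerase, was the only gene of the 44 with all of CUMS 1–3 above all controls. Its signals were 9731, 10410 and 8751 in control, 11410, 11330 and 10510 in CUMS 1–3 and 11380, 10350 and 11520 in CUMS 4–6, where CUMS 5 fell just under control 2. The log2 differences were 0.21 (SE 0.10, adjusted p = 0.745) and 0.20 in the respective groups, and 0.14 in both without control 3. Hpd, which makes homogentisate, and Fah, which splits fumarylacetoacetate, differed by 0.03 and 0.06 in CUMS 1–3 and by 0.18 and 0.13 in CUMS 4–6, with overlap.

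Among the 5 genes of tryptophan and aromatic amine metabolism, all had a higher mean in CUMS 4–6 than in control (median 0.21, and 0.25 without control 3), and all had a lower mean in CUMS 1–3 than in CUMS 4–6 (median -0.25). Kynu, kynureninase, which cleaves kynurenine and 3-hydroxykynurenine, gave the widest difference between the labels. Its signals were 4086, 4388 and 3579 in control, 4845, 2766 and 3728 in CUMS 1–3 and 5920, 4929 and 5126 in CUMS 4–6. All of CUMS 4–6 lay above every other rat, while CUMS 1–3 spread from the lowest of all 9 values to just under CUMS 5. The log2 difference of CUMS 1–3 from CUMS 4–6 was -0.53 (SE 0.18, adjusted p = 0.9996), ranging from -0.73 to -0.32 when single rats were left out. Against control it was 0.41 in CUMS 4–6 (SE 0.18, adjusted p = 0.779) and -0.12 in CUMS 1–3.

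The neighbours of Kynu in the pathway differed less. Haao, the dioxygenase that leads on to quinolinate, had 5050 ± 897 in control, 5237 ± 330 in CUMS 1–3 and 5773 ± 231 in CUMS 4–6. The last group lay above CUMS 1–3 with no overlap, by a narrow gap (5547 in CUMS 6 against 5531 in CUMS 1). Kmo, which hydroxylates kynurenine, and Acmsd, which diverts the pathway from quinolinate, had groups that overlapped throughout, Acmsd from 552 in control 1 to 1349 in CUMS 4. Ddc, the aromatic amino acid decarboxylase, had 1921, 1811 and 1474 in control, 2813, 2103 and 1283 in CUMS 1–3 and 2388, 2391 and 2231 in CUMS 4–6. It lay above all controls in CUMS 4–6 (0.44, SE 0.23, adjusted p = 0.795), while CUMS 1–3 held both the highest and the lowest rat of all 9.

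The histidine branch was represented by its first 2 enzymes. Hal, histidine ammonia-lyase, had signals of 4009, 4910 and 3621 in control, 4617, 3777 and 3124 in CUMS 1–3 and 5640, 4300 and 5012 in CUMS 4–6. The groups overlapped, since CUMS 5 lay below CUMS 1, and the difference of CUMS 1–3 from CUMS 4–6 was -0.39 (SE 0.17, adjusted p = 0.9996). Uroc1, urocanate hydratase, differed by -0.04 in the same comparison and by 0.08 and 0.12 from control.

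The serine, glycine and glyoxylate genes and the aminotransferases were those in which control 3 weighed most. The mean level of the 5 serine and glycine genes was 0.19, 0.56 and -0.75 in control 1–3, and that of the 4 aminotransferases of aspartate and alanine was 0.31, 0.49 and -0.80. Sds, serine dehydratase, which turns serine into pyruvate for glucose synthesis, had signals of 7614, 9169 and 871 in control, 4164, 3290 and 2545 in CUMS 1–3 and 4856, 1903 and 3371 in CUMS 4–6. All 6 stressed rats thus lay between control 3 and the other 2 controls. With all controls the log2 difference was -0.27 (SE 0.72) in CUMS 1–3 and -0.32 (SE 0.72) in CUMS 4–6, with adjusted p of 0.966 and 0.968. Without control 3 it was -1.36 and -1.41, with adjusted p of 0.690 and 0.803 from limma, the largest difference of any of the 44 genes in that setting. Gpt, the cytosolic alanine aminotransferase, turned its sign. Its signals were 4797, 5064 and 1337 in control, 3899, 4253 and 3573 in CUMS 1–3 and 4814, 4227 and 3389 in CUMS 4–6, and the differences were 0.29 and 0.36 with control 3 but -0.34 and -0.27 without it. Got1, the cytosolic aspartate aminotransferase, also had its lowest signal in control 3 (1337, against 3168 to 5964 in the other rats) and turned from 0.40 and 0.49 to -0.22 and -0.13.

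**Figure D4:**
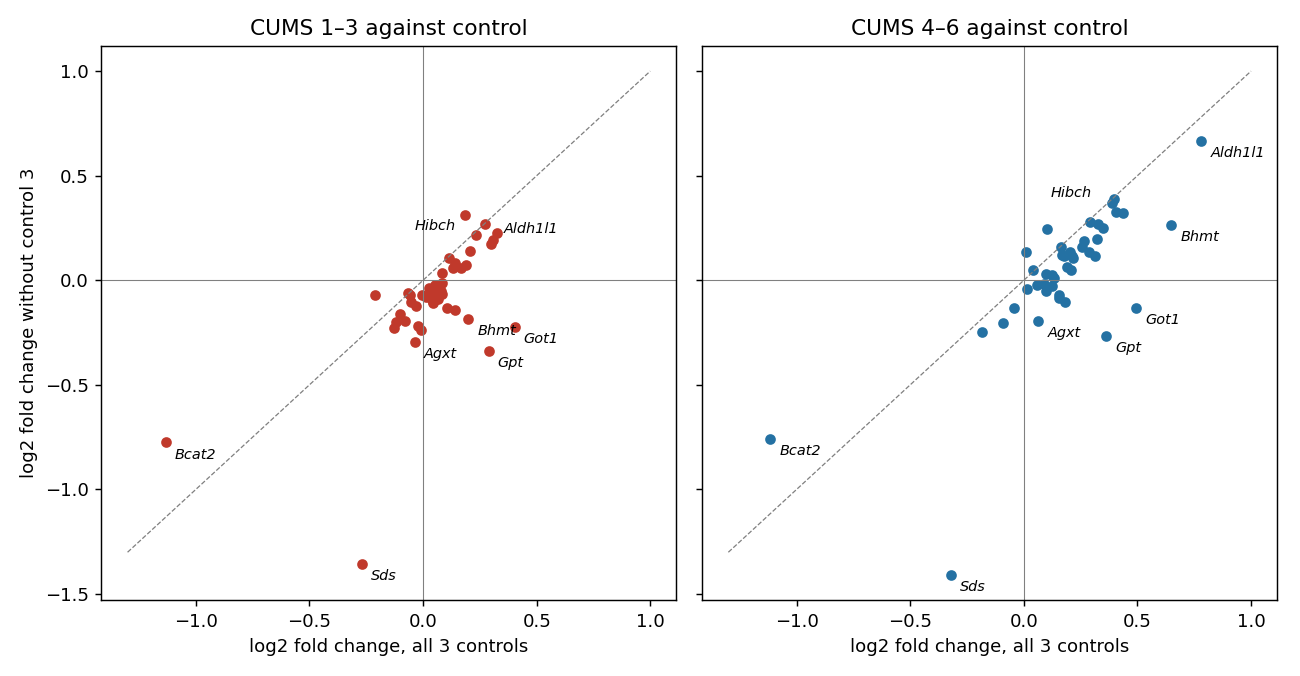
Log2 fold change of each of the 44 genes against control with all 3 controls (x axis) and without control 3 (y axis), for CUMS 1–3 (left) and CUMS 4–6 (right); the dashed line marks equal values. Most points lie below the line, Gpt and Got1 change sign, Sds moves to -1.36 and -1.41, and Aldh1l1 and Hibch keep most of their size.

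The mitochondrial forms of these aminotransferases were steadier. Got2 had 9953 ± 949, 9898 ± 548 and 10660 ± 968 in control, CUMS 1–3 and CUMS 4–6, and Gpt2 had 2497 ± 776, 2799 ± 1011 and 2736 ± 216. For Gpt2, CUMS 3 (1644) stood beside control 3 (1615) at the low end. Agxt, which turns glyoxylate into glycine, was variable in every group, with 2704, 5803 and 2309 in control, 3996, 3097 and 2711 in CUMS 1–3 and 6137, 1905 and 3544 in CUMS 4–6. Gldc, the glycine decarboxylase of the cleavage system, had high signals in control 2 (3987), CUMS 1 (3637) and CUMS 4 (5387), which were also the highest rats of their groups for Agxt. Amt, another part of that system, ranged only from 1050 to 1398, and Dao, D-amino acid oxidase, from 2912 in control 3 to 5770 in CUMS 2. None of these 6 genes had groups that stood apart. In the proline branch, Prodh2, the hydroxyproline dehydrogenase, had 3114 ± 493, 3566 ± 722 and 3128 ± 423, and Aldh4a1, which completes the oxidation to glutamate, had 8300 ± 1300, 8708 ± 860 and 9407 ± 536.

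For 7 of the 44 genes the array holds further probe sets with the same symbol alone. Those of Gpt2, Bckdha and Aldh6a1 gave differences of the same sign as the probe set used in both comparisons with control. For Got2 the dimmer probe set gave -0.19 and -0.04 against -0.01 and 0.10, and for Gldc 1 of the 2 others gave -0.81 and -0.20 against -0.02 and 0.31. The second probe sets of Dbt and Ddc did not pass the signal filter.

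Other genes of the same pathways were taken from a list of 52, of which 45 were measured and 43 passed the filter. In CUMS 1–3, 34 of the 43 had a higher mean than control (median 0.10), and 3 were higher and 0 lower at an unadjusted p under 0.05, beside 2.59% and 4.17% of all probe sets. In CUMS 4–6 these numbers were 37, 5 and 0, with a median of 0.17, beside 2.73% and 3.55%. In CUMS 1–3 against CUMS 4–6, 17 of the 43 had a higher mean and 26 a lower one (median -0.055). At that p 0 were higher or lower between the labels, beside 1.52% and 1.32% of all probe sets. Without control 3 the genes with a higher mean than control were 21 and 28, beside 49.7% and 47.8% of all probe sets. At that p 1 was higher (Glud1) and 0 lower in CUMS 1–3, beside 2.53% and 2.99% of all probe sets. In CUMS 4–6, 3 were higher (Glud1, Mut and Csad) and 1 lower (Gch1), beside 2.63% and 2.53%. Glud1, glutamate dehydrogenase, which frees the collected nitrogen as ammonia, had 16510, 14260 and 13290 in control, 20040, 18420 and 17670 in CUMS 1–3 and 16940, 18000 and 19930 in CUMS 4–6. All 6 stressed rats lay above all controls, as they did for 1.52% of all probe sets. The difference was 0.35 (SE 0.11, adjusted p = 0.665) and 0.32 (SE 0.11, adjusted p = 0.744) in the respective groups. The same separation was seen for Mut, methylmalonyl-CoA mutase, which follows Pcca and Pccb in propionate breakdown, with 6427, 6081 and 5960 in control, 6715, 7370 and 7011 in CUMS 1–3 and 7375, 7598 and 7395 in CUMS 4–6 (0.19 and 0.28, adjusted p = 0.738 and 0.744).

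Csad makes the taurine precursor hypotaurine downstream of Cdo1. It had 4248, 3658 and 2379 in control, 6208, 4415 and 3756 in CUMS 1–3 and 5160, 6464 and 4973 in CUMS 4–6. The difference of CUMS 4–6 from control was 0.72 (SE 0.23, adjusted p = 0.744), and 0.48 without control 3. CUMS 1–3 overlapped with the controls. Prodh, proline dehydrogenase, differed by 0.45 in CUMS 1–3 and 0.41 in CUMS 4–6, and Agxt2, a mitochondrial glyoxylate aminotransferase, by 0.28 in CUMS 4–6, all with adjusted p above 0.05. Of 14 amino acid transporters and 11 regulators of these genes tested, among them the glucocorticoid and glucagon receptors, 0 were higher or lower at an unadjusted p under 0.05 in either CUMS group against control, and of 11 genes of serine synthesis and the amino acid response this was also 0. The shares of all probe sets were 2.59% and 4.17% in CUMS 1–3 and 2.73% and 3.55% in CUMS 4–6, so counts of 0 in lists this short say little. Without control 3, the glutamine transporter Slc38a3 (-0.33 in both CUMS groups) and the regulator Cebpb (-0.40 and -0.41) were lower at that p. Psat1 of serine synthesis (1.07 and 1.13) was higher. These genes were chosen here after their values were seen, and all had adjusted p above 0.05. In that setting 2.99% and 2.53% of all probe sets were lower at that p in the respective groups, and 2.53% and 2.63% higher. With all controls Psat1 differed by 0.67 and 0.73. Among the controls, control 3 had the lowest signal of Slc38a3 (7096) and Cebpb (6372) and the highest of Psat1 (271). Atf3, a stress-induced factor, differed by -0.80 over all 6 CUMS rats (adjusted p = 0.617) and by -0.37 without control 3, whose signal of 355 was the highest.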

How the data were processed

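The authors extracted liver RNA with TRIzol, labelled it for Affymetrix rat 3′ expression arrays and made the deposited signal intensities with MAS5, which scaled each array to a trimmed mean of 500.2 (2% trimmed at each end). From these linear values, 586 signals below 1 were set to 1 and log2 was taken. Without the 57 control probe sets and the dimmest 40% of the rest (mean log2 signal over all arrays), 18625 probe sets were tested. The annotation gave 1 symbol to 20826 probe sets, several to 436 and none to 9780. The 3 groups, from the symptom labels, were fitted together with limma 3.58.1 in R 4.3.3 (6 residual degrees of freedom, variance trend), with Benjamini-Hochberg adjustment over all probe sets. The limma fit and the ANOVA named in the study were tested on simulated data. Every rat is a separate animal with 1 array.

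Every listed gene is named. Values by rat are given for those with an unadjusted p under 0.05 in a comparison, or the 5 with the smallest p where fewer had one. Other genes whose values are given by rat (Sds, Gpt, Got1, Agxt, Ddc) were chosen after their values were seen. Genes of the other lists are named by the same p, at most 5 a list. The members and lists were chosen with earlier results of these data known.

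Alternatives were quantile normalization, median centring, log2 of the signal plus 50, no filter or the upper 40% only, only the groups compared, no variance trend, array weights, a block for the replicate number, the mean of all probe sets of a gene, the ANOVA named in the study, and leaving out each rat in turn. Scaling on hepatocyte markers was added after seeing the data. Same-numbered rats of control 1–3 and CUMS 1–3 showed correlations of deviations of 0.00296, -0.0486 and 0.14, so the numbers were not taken to pair them. The promoter windows are from RefSeq, GRCr8. Detection calls were not used.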

Additional observations from a re-analysis of the deposited data

Results flagged for a closer look

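The 44 genes were each looked at for a rat set far from the others within the 6 CUMS rats, by the gap to the nearest rat divided by the whole range, on the log2 scale (Dixon's 95% limit for 6 rats). For groups of this size chance passes the limit in about 1 of 20 genes, and 4 of the 44 did. Bckdhb (0.637) and Ddc (0.629) had their lowest signal in CUMS 3. Gnmt (0.674) and Mthfd1 (0.636) had their highest in CUMS 4, the rat that was highest for 19 of the 44 genes.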

How the results depend on the processing

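The 25 log2 differences given for named genes by the rule kept their sign, and none reached an adjusted p under 0.05, in any of 496 alternative values. The counts moved more. Probe sets called at an adjusted p under 0.05 rose from 0 to 1 in CUMS 1–3 against control with the study's ANOVA and in CUMS 4–6 and all CUMS against control with median centring, and none of these was a listed gene. They stayed at 0 when single rats were left out. Listed genes with a higher mean in CUMS 1–3 than in CUMS 4–6, 6 of 44, were 12 with quantile normalization, 16 with array weights and 33 with scaling on hepatocyte markers (added after seeing the data). Leaving out 1 rat gave 2 to 21. The other counts of higher means were 13 to 36 (CUMS 1–3), 28 to 40 (CUMS 4–6) and 22 to 39 (all CUMS), the lowest without control 3 each time. Listed genes at an unadjusted p under 0.05 in CUMS 1–3 against control, 3 of 44, were 1 with median centring, with only the groups compared and without variance trend, 0 with ANOVA and 0 to 8 without 1 rat. In CUMS 4–6, 9 became 4 without variance trend, 4 on hepatocyte markers and 3 to 15 without 1 rat. Between the labels, 4 became 2 with median centring, 1 on hepatocyte markers, 1 with ANOVA and 1 to 6 without 1 rat, and over all CUMS 6 became 4 to 10 without 1 rat. The replicate block in CUMS 1–3 against control gave 0 calls, 29 higher means and 4 genes at p under 0.05, so it changed no call. Medians of the listed genes moved by less than the SD of their mean level between rats (0.186) in every setting. Only the scaling on hepatocyte markers turned one between the labels (from -0.087 to 0.077), while leaving out control 3 turned those of CUMS 1–3 (-0.072) and all CUMS (-0.001). The block could be fitted for CUMS 1–3 alone, and for all CUMS the fit of only the groups compared is the full fit. Causes of these changes were not tested. With 3 arrays a group, small differences cannot be told from 0.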
